A study of Mus musculus with 2 samples.

Results

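The cytosolic ribosomal protein genes encode the protein parts of the ribosome outside mitochondria. They were chosen by name (Rps or Rpl followed by a number, with Rplp0, Rplp1, Rplp2 and Rpsa, and without rows named as pseudogenes) and by detection, which asked for a UMI in at least 10 barcodes of both libraries together. Of the 31053 gene rows, 83 had such a name and 80 passed. The paralog names Rpl3l, Rpl10l and Rpl39l held 0 UMIs in all barcodes, which allows up to 0.417 CPM for each over all barcodes, and the member nearest to the limit, Rpl7l1, was found in 199 barcodes. The 80 members comprise 32 proteins of the small subunit (Rps) and 48 of the large subunit (Rpl). All 80 were located in GENCODE vM21 on GRCm38, on 19 chromosomes, with 14 members on chromosome 7.

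The data are 2 scRNA-seq libraries of the 10x v2 kit, which counts unique molecules (UMIs) by a tag at the 3′ end of each mRNA. The injured library was made from the injury sites of 5 optic nerves of wildtype 129S1/SvlmJ mice, males and females pooled, 2 weeks after optic nerve crush (ONC), and the uninjured library from 5 optic nerves without ONC. The study's methods give mice of 10 weeks with ONC at 8 weeks, while the labels give P56 for both samples. The labels also give both samples the treatment of the crushed nerve, so the uninjured library was assigned by its title and the study's design. The deposited values also carry a condition entry for each barcode, which was not used for the grouping. The authors typed the barcodes of the lineage as oligodendrocyte progenitor cells (OPCs), newly formed oligodendrocytes (NFOs) and oligodendrocytes, and other cell types were not analysed here. Each condition is 1 library of pooled nerves, so no difference below has a replicate check and no p-value is given. All intervals are exact 95% intervals and cover counting error only.

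A ribosome joins a small subunit, which reads the mRNA, to a large subunit, which links the amino acids and releases the protein through an exit tunnel. The proteins of both subunits are needed in about equal numbers, and their mRNAs are among the most abundant and shortest in a cell. Many of these mRNAs begin with a C followed by a run of pyrimidines, the terminal oligopyrimidine (TOP) motif, through which mTOR signalling adjusts their translation. Newly formed oligodendrocytes are cells that build large amounts of membrane and myelin protein, and ribosomal protein mRNAs are commonly plentiful in growing cells.

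The start regions of members that the comparisons below turn on are printed with runs of this kind near the listed start. RefSeq start sites (GRCm38.p6) were found for 60 of the 80 members, and each line gives 15 bases before and 15 bases from the start, on the strand of the gene. Capitals mark a run of C followed by at least 4 pyrimidines (C or T), searched on the transcribed strand with its first base within 10 bases of the start.
Rpl19, chr11:98026909-98026938: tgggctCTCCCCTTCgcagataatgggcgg
Rps26, chr10:128626492-128626521: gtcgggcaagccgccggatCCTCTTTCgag
Rps2, chr17:24720048-24720077: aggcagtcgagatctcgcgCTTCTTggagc
Rps27, chr3:90213634-90213663: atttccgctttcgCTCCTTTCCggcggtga
Rpl13a, chr7:45128731-45128760: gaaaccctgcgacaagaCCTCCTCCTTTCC
Rpl12, chr2:32961697-32961726: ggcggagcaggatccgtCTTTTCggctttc
Rplp0, chr5:115559452-115559481: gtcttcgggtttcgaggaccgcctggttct
Rps15, chr10:80292416-80292445: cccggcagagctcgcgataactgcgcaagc
The first 3 genes had among the higher injured to uninjured ratios in oligodendrocytes, the next 3 had low ratios, and Rplp0 (high) and Rps15 (low) have no such run in this window. The run was present in 36 of 60 members (60%) and in 34.4% of the 27025 genes of the RefSeq table. Whether the run goes with the ratio of a gene was not tested. The window depends on 1 listed start site per row, and a run outside it was not looked for. Several members, Rpl19 among them, have more than 1 listed start site, and all of these were counted as having the run. The motif itself lies at the first base of the mRNA. The run of Rpl19 lies wholly before its listed start, and those of Rps26 and Rps2 begin after theirs. The marked runs therefore do not show which of these mRNAs carry or lack the motif.

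Members took 352682 of 7186631 UMIs, or 4.91%. Every one of the 1369 barcodes held at least 1 member UMI, and the share in a barcode ran from 0.434% to 34.3%. In the sums over types the libraries were almost level, with 4.91% in the uninjured and 4.90% in the injured library. The median barcode differed, with 3.81% in the uninjured and 6.93% in the injured library. The share and the depth of a barcode were related in opposite senses in the 2 libraries (Spearman's rho of 0.25 over 959 uninjured barcodes and -0.52 over 410 injured barcodes), as a description over barcodes that share a library.

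**Figure D1:**
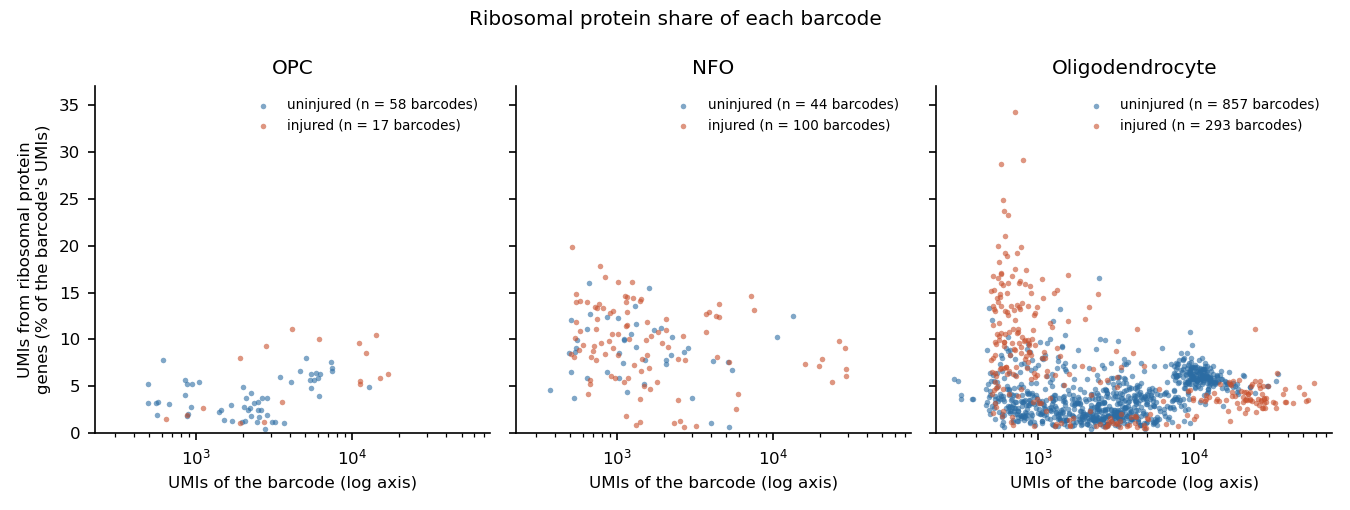
Percentage of a barcode's UMIs that came from the 80 ribosomal protein genes (y axis) against the UMIs of the barcode (x axis, log scale), 1 point per barcode, in 3 panels by type and coloured by library. The highest shares, up to 34.3%, are injured oligodendrocyte barcodes of under 1000 UMIs, while the deep uninjured oligodendrocyte barcodes form a group above the deep injured ones.

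Several facts of the libraries bear on these values. The median barcode held 2782 UMIs (291 to 34653) in the uninjured and 1304.5 UMIs (502 to 58568) in the injured library, and no barcode sequence was shared between them. The typed classes carried their markers in both libraries. All 6 OPC markers were found in at least 25% of OPC barcodes. The same held for 6 of 7 NFO markers in NFOs and all 10 oligodendrocyte markers in oligodendrocytes. The classes also shared markers at this limit. NFOs had 8 (uninjured) and 7 (injured) of 10 oligodendrocyte markers and 4 and 3 of 6 OPC markers. OPCs had 4 of 7 NFO markers and 4 of 10 oligodendrocyte markers in each library. Oligodendrocytes had 2 and 3 of 7 NFO markers and 0 of 6 OPC markers. Mog and Ermn were at 0 in the 17 injured OPC barcodes. UMIs of 11 macrophage or microglia markers made up 0.0026% of uninjured and 0.032% of injured oligodendrocyte UMIs, with Spp1 alone at 0 in the former and none at 0 in the latter. In oligodendrocytes under 1000 UMIs they made up 0.0128% (5 of 11 markers at 0) and 0.395% (none at 0). Malat1, a long noncoding RNA kept in the nucleus, had a median of 5.26% of UMIs in uninjured and 0.406% in injured barcodes.

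In oligodendrocytes, ribosomal protein mRNAs made up 4.85% of UMIs (4.82% to 4.87%, 857 barcodes) in the uninjured and 4.26% (4.23% to 4.29%, 293 barcodes) in the injured library, a ratio of 0.879 (0.872 to 0.886). This sum is mostly the deepest barcodes. The 84 injured barcodes of 8000 or more UMIs are 28.7% of the class and hold 86.9% of its UMIs, and the 203 uninjured ones are 23.7% of the class and hold 58.7%. The direction of the difference turned with depth. Under 1000 UMIs the share was 3.97% (3.85% to 4.08%, 157 barcodes) in the uninjured and 11.0% (10.8% to 11.2%, 133 barcodes) in the injured library, a ratio of 2.77 (2.68 to 2.87). At 8000 or more UMIs it was 5.77% (5.74% to 5.80%) in the uninjured and 4.0% (3.97% to 4.02%) in the injured library, a ratio of 0.692 (0.687 to 0.699). The bands between ran from one to the other, with ratios of 2.10 (2.01 to 2.19) at 1000 to under 2000 UMIs, 1.06 (1.02 to 1.10) at 2000 to under 4000 UMIs and 0.716 (0.687 to 0.747) at 4000 to under 8000 UMIs. Weighting every barcode alike, the mean share was 4.08% in uninjured and 7.43% in injured oligodendrocytes. With barcodes of at least 500 UMIs thinned to 500, the log2 ratio of the injured to the uninjured class was 0.88, against -0.19 in the sums. Barcodes of fewer UMIs, all of them uninjured, were left out of that value. Injured barcodes of under 1000 UMIs are 45.4% of their class, against 18.3% of the uninjured class.

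Summed over depth, the share also went with Malat1. Injured oligodendrocytes with under 0.5% of UMIs from Malat1 (133 of 293 barcodes) had a share of 10.2% (10.0% to 10.3%), and the other 160 had 3.91% (3.89% to 3.94%). Uninjured ones (48 of 857 barcodes) had 7.94% (7.74% to 8.14%), and the other 809 had 4.79% (4.77% to 4.81%). Barcodes poor in Malat1 were thus the richer ones in both libraries, and they were far more frequent in the injured library. The deepest injured one held 3389 UMIs, so this contrast also sets shallow against deep barcodes. Within bands, Spearman's rho of share and Malat1 in injured oligodendrocytes was -0.08 under 1000 UMIs and -0.60 at 1000 to under 2000. It was -0.68 at 2000 to under 4000, -0.06 at 4000 to under 8000 and 0.004 at 8000 or more. In uninjured oligodendrocytes it lay between -0.44 and -0.22 in every band. Under 1000 UMIs the injured share was the higher one on both sides of the limit, with 11.5% against 6.89% in barcodes poor in Malat1 (ratio 1.67, 1.56 to 1.79) and 9.17% against 3.59% in the rest (ratio 2.56, 2.41 to 2.71). At 2000 to under 4000 UMIs the injured share was the lower one on both sides, with 7.19% against 8.50% (ratio 0.846, 0.798 to 0.896, 11 and 11 barcodes) and 1.12% against 2.84% (ratio 0.396, 0.364 to 0.429, 17 and 208 barcodes). At 1000 to under 2000 UMIs the sides parted, with ratios of 1.15 (1.08 to 1.21) in barcodes poor in Malat1 and 0.739 (0.655 to 0.832) in the rest. Of the oligodendrocyte barcodes, 46 of 293 injured and 788 of 857 uninjured ones held no UMI of the macrophage list. In these the ratio was 2.80 (2.64 to 2.98) under 1000 UMIs, over 20 injured and 146 uninjured barcodes. At 8000 or more UMIs it was 0.633 (0.619 to 0.647), over 11 and 175 barcodes. A barcode without a UMI of the list can still hold RNA of such cells, and the part of that RNA was not tested. The part of nuclear RNA and of barcode depth in the differences was not tested.

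**Figure D2:**
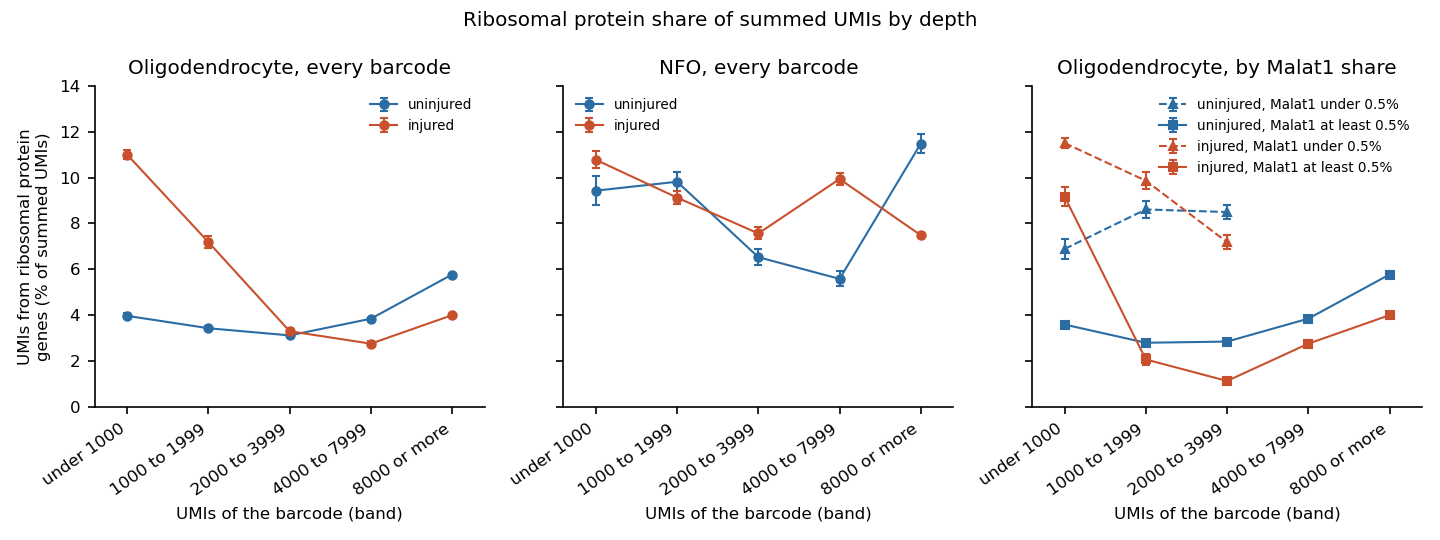
Percentage of summed UMIs from the 80 ribosomal protein genes (y axis) in 5 bands of barcode depth (x axis), for oligodendrocytes, NFOs and oligodendrocytes split at 0.5% of UMIs from Malat1 (points of at least 10 barcodes). Bars are exact 95% counting intervals; in oligodendrocytes the injured share falls from 11.0% to 2.75% over the first 4 bands and is 4.0% in the deepest, and it is below the uninjured one only from 4000 UMIs.

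For single genes, levels are CPM of summed UMIs (UMIs of the gene per 1000000 UMIs of the class), a gene was compared where it had at least 50 UMIs in both classes together, and it was called when its CPM differed by at least 1.5-fold. Over all oligodendrocyte barcodes, 0 of 80 members were called higher in the injured library and 10 were called lower (12.5%). Of all 8591 genes compared, 15.6% were called higher and 12% lower. The median log2 ratio of the members was -0.18 and that of all genes 0.05, and 58 members were below 0. In barcodes under 1000 UMIs, 71 of 74 members compared were called higher and 0 lower, where 41.2% of 522 genes were called higher and 42.3% lower. There the median log2 ratio of the members was 1.5 and that of all genes -0.06. The remaining members had under 50 UMIs there and were not compared. Of these, Rpl29 (13 uninjured and 8 injured UMIs) and Rpl7l1 (3 and 1) had ratios below 1, with intervals that held 1. Rpl13a, Rpl23a, Rpl22l1 and Rps27l had ratios above 1. In barcodes of 8000 or more UMIs, 0 of 80 members were called higher and 36 lower (45%), where 21.5% of 7631 genes were called higher and 8.86% lower. There the median log2 ratio was -0.55 for the members and 0.14 for all genes. The genes compared under 1000 UMIs are the abundant ones alone, so the 2 bands describe different backgrounds.

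**Figure D3:**
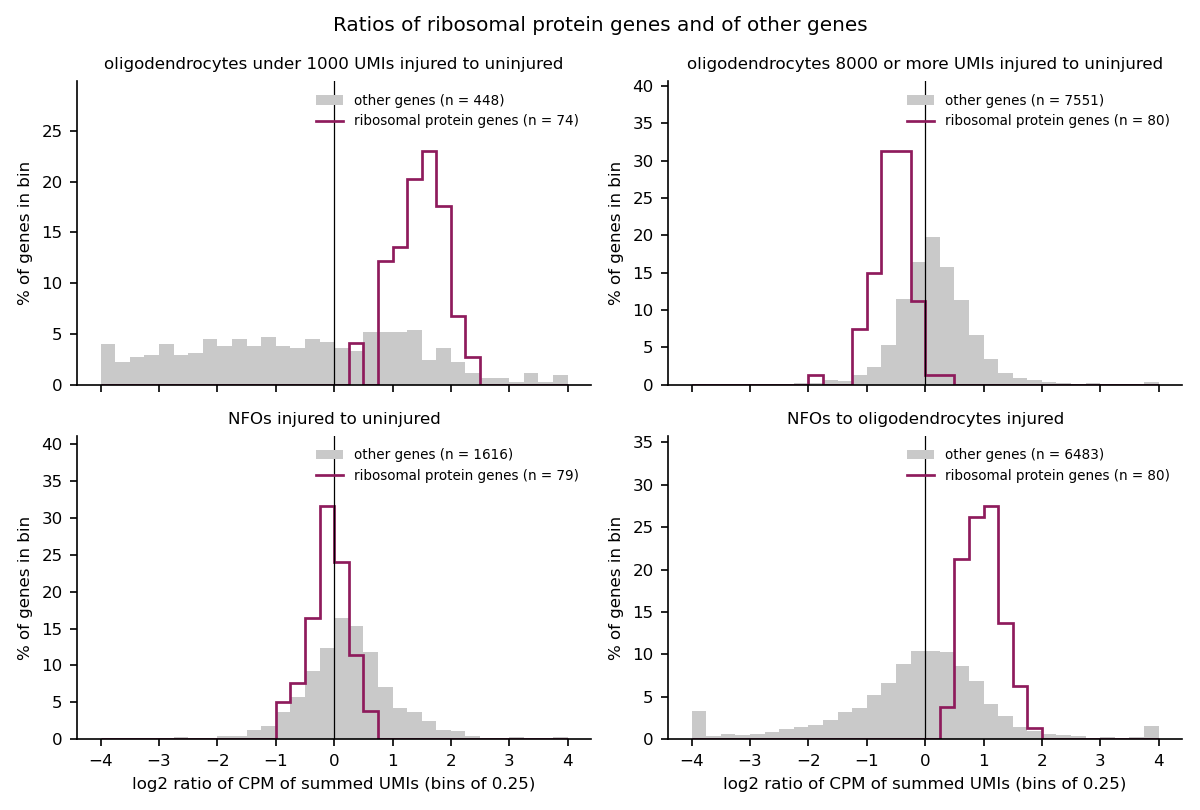
Distribution of log2 ratios of CPM of summed UMIs (x axis, bins of 0.25, with values beyond 4 in either direction in the end bins) as a percentage of genes (y axis), for ribosomal protein genes (line) and all other genes compared (grey), in 4 comparisons. The members lie in a narrow peak around a median of 1.5 in oligodendrocytes under 1000 UMIs, -0.55 at 8000 or more UMIs, -0.08 in NFOs and 0.97 for NFOs to oligodendrocytes, inside broader distributions of the other genes.

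Of the large subunit, 5 of 48 members were called lower in oligodendrocytes over all barcodes, where 12% of all genes were, so the count is near the background and the genes below are described by their values. Rpl13a (ENSMUSG00000074129, chromosome 7, 45125558 to 45128761), a surface protein of the large subunit that also serves in a translation silencing complex of myeloid cells, had the lowest ratio. Its level was 168 CPM in uninjured and 64.3 CPM in injured oligodendrocytes, a ratio of 0.383 (0.319 to 0.458). At 8000 or more UMIs it was 188 CPM and 53.0 CPM, and under 1000 UMIs it was 182 CPM (20 UMIs) and 263 CPM (24 UMIs), where the interval of the ratio, 0.763 to 2.75, held 1. As a mean over barcodes its log2 ratio was 0.23, and with barcodes thinned to 500 UMIs 0.62, so its direction depended on how the barcodes were combined. Its gene overlaps another annotated gene on the same strand. Rpl17, which lines the exit tunnel, was at 509 CPM in uninjured and 288 CPM in injured oligodendrocytes, a ratio of 0.566 (0.518 to 0.618). Rpl29, a small basic protein of the large subunit, was at 99.5 CPM and 57.3 CPM, a ratio of 0.576 (0.470 to 0.702). Rpl23a, at the mouth of the exit tunnel, was at 201 CPM and 124 CPM, a ratio of 0.617 (0.537 to 0.706). All of these were lower in the deep injured barcodes, and Rpl17 was higher in the shallow ones, with 337 CPM in uninjured and 646 CPM in injured barcodes under 1000 UMIs. Rpl29 (13 and 8 UMIs) and Rpl23a (21 and 25 UMIs) were too sparse to be compared there. Rpl27 was at 305 CPM and 217 CPM, a ratio of 0.712 (0.641 to 0.791). Rpl7 was at 494 CPM and 411 CPM, a ratio of 0.833 (0.771 to 0.901). Their ratios under 1000 UMIs were 2.46 and 2.11.

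At the other end were Rpl3, which reaches towards the peptidyl transferase centre, and Rpl6. Rpl3 (ENSMUSG00000060036, chromosome 15, 80077791 to 80091868) was at 666 CPM in uninjured and 820 CPM in injured oligodendrocytes, a ratio of 1.23 (1.16 to 1.31). Rpl6 was at 590.0 CPM and 690.2 CPM, a ratio of 1.17 (1.10 to 1.25). In barcodes under 1000 UMIs Rpl6 was at 283 CPM and 1248 CPM, a ratio of 4.42 (2.95 to 6.80), while at 8000 or more UMIs it was at 754 CPM and 680 CPM, a ratio of 0.901 (0.839 to 0.967). Neither gene reached 1.5-fold over all barcodes. Rpl19, a protein that bridges to the small subunit, was at 812 CPM and 930.4 CPM, a ratio of 1.15 (1.08 to 1.21). Rpl41, an mRNA of a very short and basic peptide, was at 1039 CPM and 1145 CPM, a ratio of 1.10 (1.05 to 1.16), and Rpl10a, of the stalk on the exit side for tRNA, at 202 CPM and 232 CPM, a ratio of 1.15 (1.03 to 1.28). Rpl9 was at 675 CPM and 655 CPM, and its interval, 0.910 to 1.03, held 1.

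The P stalk, which recruits the elongation factors to the large subunit, held members at both ends of the range. Rplp0 (ENSMUSG00000067274, chromosome 5, 115559467 to 115563727), the base that anchors the stalk, had the highest ratio of all members in oligodendrocytes, with 618 CPM in uninjured and 771 CPM in injured barcodes (ratio 1.25, 1.17 to 1.33). Rplp1 (ENSMUSG00000007892, chromosome 9, 61913284 to 61914542), 1 of its flexible arms, had a called lower level, with 1397 CPM in uninjured and 875 CPM in injured barcodes (ratio 0.626, 0.595 to 0.659). Under 1000 UMIs both were higher in the injured library, Rplp0 with 428 CPM and 1751 CPM and Rplp1 with 1632 CPM and 3120 CPM. At 8000 or more UMIs Rplp0 was level, with 754 CPM and 743 CPM, and Rplp1 was lower, with 1615 CPM and 775 CPM. Rpl12, at the foot of the stalk, was at 255 CPM and 175 CPM over all barcodes, a ratio of 0.689 (0.613 to 0.773). Rpl5, which with Rpl11 carries the 5S rRNA into the ribosome and binds Mdm2 when unassembled, was at 302 CPM and 207 CPM, a ratio of 0.686 (0.616 to 0.762). It was also 1 of the 3 compared members not called under 1000 UMIs, with 383 CPM and 471 CPM.

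Of the small subunit, 5 of 32 members were called lower, again beside 12% of all genes. Rps15, which sits in the head near the decoding site, was at 356 CPM in uninjured and 206 CPM in injured oligodendrocytes, a ratio of 0.579 (0.521 to 0.642). Rps25, which some viral mRNAs need to start translation, was at 247 CPM and 149 CPM, a ratio of 0.603 (0.532 to 0.682). Under 1000 UMIs these were the other compared members not called, with 292 CPM and 372 CPM of Rps15 and 264 CPM and 317 CPM of Rps25, and the intervals of both ratios held 1. Rps29 (ENSMUSG00000034892, chromosome 12, 69157722 to 69159186), the member found in most barcodes (1184) and with most UMIs (11963), was at 1855 CPM and 1229 CPM, a ratio of 0.662 (0.634 to 0.692). Rps27, also of the small subunit, was at 881 CPM and 562 CPM, a ratio of 0.639 (0.599 to 0.681). Rps29 was at 2133 CPM and 4652 CPM under 1000 UMIs and at 2095 CPM and 1062 CPM at 8000 or more UMIs, so its direction too turned with depth. As means over barcodes the log2 ratios of Rps29, Rps25, Rplp1 and Rpl17 over all oligodendrocytes were likewise above 0, at 0.75, 0.10, 0.55 and 0.16, and that of Rps15 was 0.32 with barcodes thinned to 500 UMIs. Rps6, the target of the S6 kinases downstream of mTOR, was at 477 CPM and 308 CPM, a ratio of 0.644 (0.591 to 0.703). It was the higher one in injured barcodes under 1000 UMIs, with 547 CPM and 1007 CPM, a ratio of 1.84 (1.32 to 2.59). Rps21 was at 1306 CPM and 914 CPM, a ratio of 0.700 (0.665 to 0.736). Rps18, in the head of the small subunit, was at 467 CPM and 363 CPM, a ratio of 0.777 (0.716 to 0.843). The ratios of Rps27, Rps21 and Rps18 under 1000 UMIs were 2.60, 2.92 and 2.84.

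Rps2 and Rps3 flank the channel where mRNA enters, and Rps26 lies where it leaves. Rps2 was at 592 CPM in uninjured and 728 CPM in injured oligodendrocytes, a ratio of 1.23 (1.16 to 1.31). Rps26 was at 463 CPM and 542 CPM, a ratio of 1.17 (1.09 to 1.26). Under 1000 UMIs Rps26 had the highest ratio of all members, with 319 CPM and 1620 CPM (ratio 5.08, 3.49 to 7.57), and at 8000 or more UMIs it was at 558 CPM and 491 CPM. Rps3 was at 759 CPM and 754 CPM and Rps10 at 717 CPM and 748 CPM, and both intervals (0.936 to 1.05 and 0.983 to 1.11) held 1. Rps27a, made as a fusion with ubiquitin, was at 1088 CPM and 1086 CPM, a ratio of 0.998 (0.95 to 1.05). Of these, at 8000 or more UMIs only Rps2 had a ratio above 1, at 1.01 (0.943 to 1.09).

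**Figure D4:**
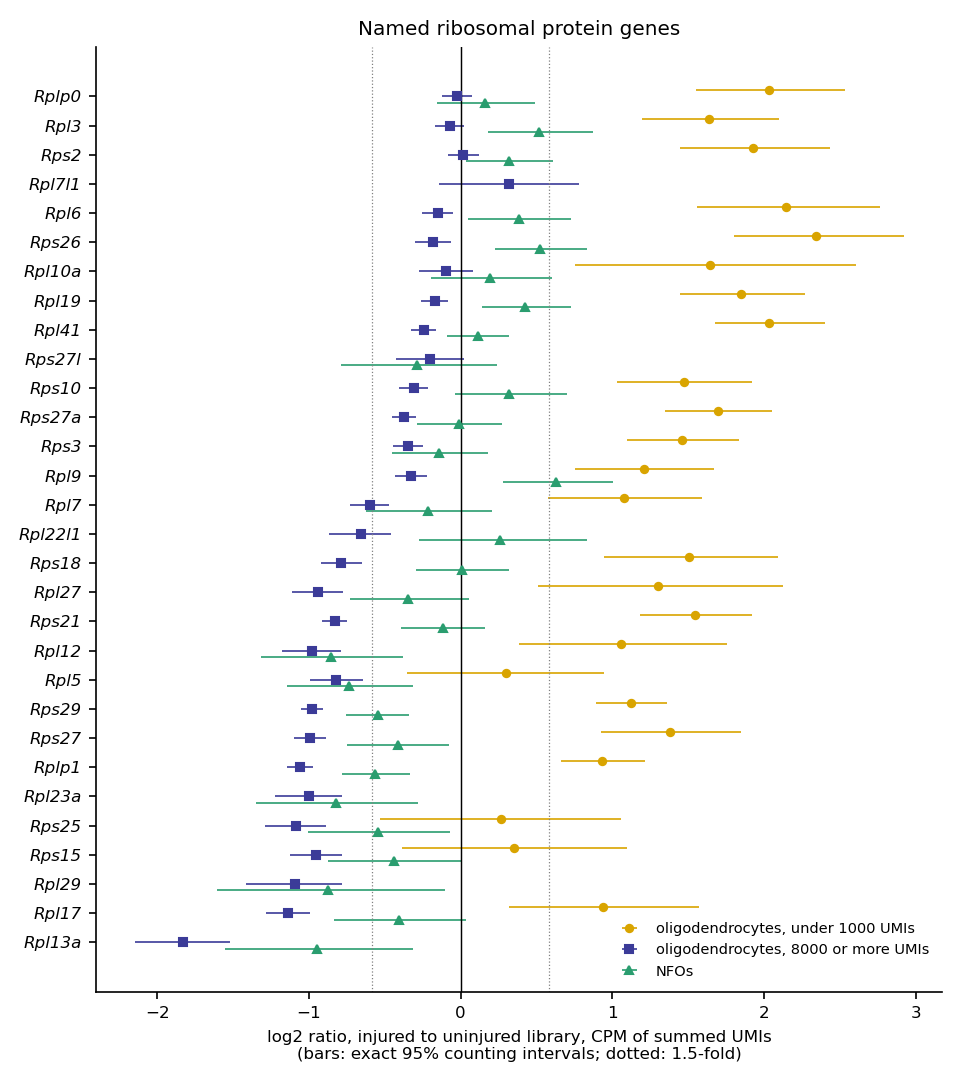
Log2 ratio of CPM of summed UMIs, injured to uninjured library (x axis), for the named ribosomal protein genes (y axis, in the order of their ratio over all oligodendrocytes), with exact 95% counting intervals and dotted lines at 1.5-fold. Genes with under 50 UMIs have no point; oligodendrocytes under 1000 UMIs lie right of 0 for each gene shown, those of 8000 or more UMIs mostly left of it, and NFOs around it.

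Paralog genes encode near copies of a ribosomal protein. Of 7 such names, 1 (Rps4l) is not a row and 3 were at 0. Rpl7l1, a member of the group that acts in ribosome assembly, was at 30.4 CPM in uninjured and 37.4 CPM in injured oligodendrocytes, a ratio of 1.23 (0.924 to 1.63). Rps27l, a gene induced by p53, was at 128 CPM and 140 CPM, a ratio of 1.09 (0.945 to 1.25), while Rps27, its parent, was called lower. Rpl22l1 was at 193 CPM and 157 CPM, a ratio of 0.813 (0.716 to 0.922). No paralog was called in oligodendrocytes, and their UMIs were 0.0352% of the uninjured and 0.0334% of the injured class.

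In NFOs the share was 8.58% (8.40% to 8.76%, 44 barcodes) in the uninjured and 8.29% (8.20% to 8.38%, 100 barcodes) in the injured library, a ratio of 0.966 (0.943 to 0.991). A single uninjured barcode holds 20.6% of the ribosomal protein UMIs of its class, and without it and its counterpart in the injured class the log2 ratio went from -0.05 to 0.05. The direction thus depended on these barcodes. Of 79 members compared, 1 was called higher and 7 lower, where 27.8% of 1695 genes were called higher and 10.9% lower. Without those barcodes 3 were called higher and 2 lower. The median log2 ratio was -0.08 for the members and 0.20 for all genes. On the scale set by the median gene, 0 members were called higher and 14 lower. The share of all genes called was not computed on that scale or without those barcodes, so these counts have no background. Rpl9 was the member called higher, with 807 CPM in uninjured and 1251 CPM in injured NFOs (ratio 1.55, 1.21 to 2.00). Rpl13a was at 372 CPM (35 UMIs) and 193 CPM (68 UMIs), a ratio of 0.520 (0.341 to 0.805). Rpl29 was at 255 CPM and 139 CPM, a ratio of 0.546 (0.329 to 0.931). These 2 genes had the lowest ratios here, and that of Rpl13a turned to 0.19 (log2) in NFOs of at least 0.5% Malat1. Rpl12 was at 627 CPM and 347 CPM (ratio 0.553, 0.402 to 0.768), Rpl23a at 478 CPM and 270.0 CPM (ratio 0.565, 0.392 to 0.824) and Rpl5 at 776 CPM and 466 CPM (ratio 0.601, 0.453 to 0.803). Next to Rpl9 at the upper end were Rps26 with 1137 CPM and 1634 CPM (ratio 1.44, 1.17 to 1.78) and Rpl3 with 903 CPM and 1293 CPM (ratio 1.43, 1.13 to 1.83). Rpl19 was at 1243 CPM and 1671 CPM (ratio 1.34, 1.10 to 1.65), and Rpl6 at 946 CPM and 1233 CPM (ratio 1.3, 1.04 to 1.66).

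By depth, injured NFOs had 10.8% (10.4% to 11.2%) and uninjured ones 9.43% (8.81% to 10.1%) under 1000 UMIs. At 1000 to under 2000 UMIs the order was the other way, with 9.13% and 9.82%. At 2000 to under 4000 UMIs the shares were 7.56% over 14 injured barcodes and 6.53% over 8 uninjured ones. At 4000 to under 8000 UMIs the shares were 9.94% over 9 injured barcodes and 5.58% over 4 uninjured ones, and at 8000 or more UMIs they were 7.49% over 8 and 11.5% over 2. The bands thus showed no steady direction in NFOs. NFOs were mostly poor in Malat1, 77 of 100 injured and 28 of 44 uninjured barcodes, and those had 10.7% and 9.86%, against 6.99% and 7.97% in the rest.

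Ribosomal protein mRNAs were a larger share of UMIs in NFOs than in oligodendrocytes of the same library. The ratio of the shares was 1.77 (1.73 to 1.81) in the uninjured and 1.95 (1.92 to 1.97) in the injured library. In the injured library 73 of 80 members were called higher in NFOs and 0 lower, where 26.2% of 6563 genes were called higher and 28.5% lower. In the uninjured library 62 of 80 were called higher and 0 lower, where 30.1% of 7651 genes were called higher and 32.9% lower. All 80 members had a ratio above 1 in each library. The difference depended on depth in the injured library, where under 1000 UMIs NFOs had 10.8% and oligodendrocytes 11.0%, a ratio of 0.980 (0.939 to 1.02). At 8000 or more UMIs NFOs had 7.49% and oligodendrocytes 4.0%, a ratio of 1.87 (1.84 to 1.91). In the bands between, from shallow to deep, the ratio was 1.27, 2.29 and 3.61, the last over 9 and 17 barcodes. In the uninjured library the ratio was 2.38 (2.20 to 2.57) under 1000 UMIs, over 14 and 157 barcodes. It was 1.99 (1.92 to 2.07) at 8000 or more UMIs, where only 2 NFO barcodes remained. In the uninjured bands between it was 2.87, 2.10 and 1.45, the last over 4 and 133 barcodes. Among barcodes poor in Malat1, the injured shares were 10.7% in NFOs and 10.2% in oligodendrocytes, and the uninjured ones 9.86% and 7.94%. In the rest they were 6.99% and 3.91% in the injured library and 7.97% and 4.79% in the uninjured one. The part of nuclear RNA in the difference was not tested. UMIs of the OPC marker list were 0.263% of injured NFO UMIs against 0.00469% in injured oligodendrocytes.

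Rpl10a had the highest ratio of NFOs to oligodendrocytes in the injured library, with 816 CPM and 232 CPM (ratio 3.52, 3.04 to 4.07), and its ratio in the uninjured library was 3.52 (2.71 to 4.52), from 712 CPM and 202 CPM. Rps18 followed with 1216 CPM and 363 CPM (ratio 3.35, 2.97 to 3.77) in the injured library and 1211 CPM and 467 CPM in the uninjured one. Rps26 was at 1634 CPM and 542 CPM (ratio 3.01, 2.73 to 3.33). In each of these the NFO level was the higher one in both libraries. Rpl13a was at 193 CPM and 64.3 CPM (ratio 3.01, 2.22 to 4.03), but its log2 ratio turned to -0.40 as a mean over barcodes and -1.36 with barcodes thinned to 500 UMIs. Rpl27 was at 620 CPM and 217 CPM (ratio 2.85, 2.42 to 3.35). Of the paralogs, Rpl22l1 had a ratio of 2.85 (2.34 to 3.44) and Rps27l of 2.74 (2.23 to 3.36) in the injured library, and 1.93 (1.33 to 2.70) and 3.64 (2.61 to 4.95) in the uninjured one. Their parents Rpl22 and Rps27 belong to a list of 7 parent genes. Its median log2 ratio was 0.66 in the injured library, and that of the 3 paralogs was 1.46. The 7 parents are not matched gene by gene to the 3 paralogs, so these medians do not compare paralog with parent.

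The 5 smallest differences in the injured library were those of Rps27a, Rps10, Rps3, Rpl7 and Rps27. Rps27a was at 1424 CPM in NFOs and 1086 CPM in oligodendrocytes of the injured library (ratio 1.31, 1.19 to 1.44). Rps10 was at 1009 CPM and 748 CPM (ratio 1.35, 1.20 to 1.51), and Rps3 at 1060 CPM and 754 CPM (ratio 1.41, 1.25 to 1.57). Rpl7 was at 594 CPM and 411 CPM (ratio 1.44, 1.24 to 1.68) and Rps27 at 813 CPM and 562 CPM (ratio 1.45, 1.27 to 1.64). None of these 5 was called there. In the uninjured library Rps10 had the lowest ratio of all members, 1.13 (0.885 to 1.41), from 807 CPM and 717 CPM, and its interval held 1.

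In OPCs the share was 4.56% (4.46% to 4.66%, 58 barcodes) in the uninjured and 7.22% (7.08% to 7.37%, 17 barcodes) in the injured library, a ratio of 1.58 (1.54 to 1.64). The injured class is under 20 barcodes, and 7 of them of 8000 or more UMIs hold 78.2% of its UMIs, where 1 uninjured barcode was as deep. Under 1000 UMIs the order was the other way, with 3.93% over 14 uninjured and 1.80% over 2 injured barcodes, and at 4000 to under 8000 UMIs the shares were 6.21% over 14 and 10.5% over 2. Nuclear RNA moved with the class: a list of 4 nuclear RNAs made up 10.8% of uninjured and 3.74% of injured OPC UMIs, and 0 of 58 and 5 of 17 barcodes had under 0.5% Malat1. The other 12 injured barcodes had a share of 6.23%, and the part of nuclear RNA in the difference was not tested. Rplp0 was at 397 CPM and 1054 CPM, Rps27l at 163 CPM (28 UMIs) and 544 CPM (64 UMIs), and Rpl13a at 193 CPM (33 UMIs) and 128 CPM (15 UMIs). In the uninjured library OPCs were close to oligodendrocytes, with a ratio of 0.941 (0.919 to 0.962).

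Other parts of the translation machinery were read from lists written from textbook roles. Of ribosome genes that the name rule leaves out, Rack1, a scaffold on the small subunit, was called lower in injured oligodendrocytes over all barcodes, with 286 CPM in uninjured and 177 CPM in injured barcodes (ratio 0.619, 0.552 to 0.694). Fau and Rpl36al were not called. Under 1000 UMIs Fau was at 565 CPM and 2321 CPM (ratio 4.11, 3.08 to 5.54). The list of 14 translation factors and other genes known for TOP mRNAs had 2 called higher and 0 lower over all oligodendrocyte barcodes, with a median log2 ratio of 0.02. Of all genes compared, 15.6% were called higher and 12% lower. The ends of that list were Eif4b at 62.4 CPM and 100.3 CPM and Pabpc1 at 120.5 CPM and 187 CPM, against Hnrnpa1 at 134 CPM and 106 CPM and Eef1g at 158 CPM and 126 CPM. Under 1000 UMIs all 6 of the list that could be compared were called higher, among them Tpt1 at 2315 CPM and 9732 CPM and Eef1a1 at 1294 CPM and 5156 CPM. Of all genes compared in that band, 41.2% were called higher and 42.3% lower. The rest of the list had under 50 UMIs there. At 8000 or more UMIs 1 of 14 was called higher and 0 lower, with a median of -0.28, where 21.5% of all genes were called higher and 8.86% lower.

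The counts of the next 3 lists stand beside 15.6% of all genes called higher and 12% lower in oligodendrocytes. Of 26 initiation factors, 3 were called higher and 0 lower in oligodendrocytes over all barcodes (median log2 ratio 0.08), with Eif1a at 17.6 CPM and 40.4 CPM and Eif4g2 at 288 CPM and 532 CPM at the upper end and Eif3g at 114 CPM and 79.0 CPM and Eif4a2 at 170 CPM and 122 CPM at the lower. Of 29 ribosome biogenesis genes compared, 5 were called higher and 2 lower (median 0.21), with Nhp2 at 26.5 CPM and 49.1 CPM and Nop58 at 23.4 CPM and 42.1 CPM against Polr1a at 26.8 CPM and 16.5 CPM and Polr1c at 21.7 CPM and 14.3 CPM. Of 76 mitochondrial ribosomal protein genes compared, 4 were called higher and 0 lower (median 0.08). Mrpl39 was at 17.8 CPM and 32.1 CPM and Mrpl45 at 17.6 CPM and 30.0 CPM, against Mrps35 at 23.4 CPM and 16.5 CPM and Mrpl1 at 21.7 CPM and 15.6 CPM. The mitochondrial list made up 0.492% of uninjured and 0.452% of injured UMIs in barcodes of 8000 or more UMIs, and 0.285% and 0.333% under 1000 UMIs. In NFOs to oligodendrocytes of the injured library, 33 of 69 mitochondrial ribosomal protein genes were called higher and 4 lower, and 13 of 26 biogenesis genes higher and 1 lower, where 26.2% of all genes were called higher and 28.5% lower.

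The mRNAs of the members are short, with a median annotated length of 704 bases (368 to 3706) against 2218 bases for 14383 other protein-coding genes with a UMI. Since the kit counts 1 tag per molecule at the 3′ end, CPM was not divided by length. Ribosomal protein genes have many processed copies in the genome, and how reads that fit a gene and a copy equally were counted is not given in the sources used here, so the levels of single members are uncertain. The 9 rows named as pseudogenes of members held 429 UMIs and were left out. Annotated genes overlap 5 of the members on the same strand, among the named ones Rpl13a, Rpl19 and Rps10.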

How the data were processed

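Optic nerve cells were measured by 10x v2 scRNA-seq, with 1 library of 5 pooled nerves per condition. Per the labels and the study's methods, the authors used Cell Ranger 1.3, bcl2fastq 2.17.1.14 and mm10, kept barcodes of at least 200 genes, at most 20% mitochondrial UMIs and at most 150000 UMIs, and typed them with Seurat 4.0.3. The values the authors deposited are on a natural log scale, ln(1 + 10000 × gene UMIs / barcode UMIs), for barcodes of the lineage. UMIs were recovered from them as whole numbers in 100% of barcodes (tolerance 0.001). The libraries hold 4414834 (uninjured) and 2771797 (injured) UMIs. A further table combining both libraries held identical values and was not used.

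Samples were grouped by their titles, since the treatment label is the same for both. UMIs were summed per class and given as CPM. Genes with at least 50 UMIs over both classes were compared, and a ratio of at least 1.5-fold was called. Shares have exact binomial (Clopper-Pearson) intervals and ratios exact conditional intervals, at 95%. With 1 library per condition no test was possible. The ratio and interval code was tested on simulated counts. No barcode was removed as a doublet; an alternative without called doublets left out 13 of 959 uninjured and 4 of 410 injured barcodes. The named genes are the 5 lowest and 5 highest ratios in each of the oligodendrocyte, NFO and injured NFO to oligodendrocyte comparisons, the 5 members with most UMIs, the paralogs and the member nearest to the detection limit, and of the other lists the 2 highest and 2 lowest ratios. Rps6 was added after its values were seen. Some genes that this rule names are not reported here. The members, the lists and the depth bands were chosen with earlier results of these data known. Alternatives covered the gene minimum, the fold, scaling, equal depth, depth and quality limits, Malat1, doublets and single barcodes. Python 3.11.15, numpy 2.4.6, scipy 1.17.1, pandas 2.3.3, scanpy 1.11.5 and matplotlib 3.10.9 were used.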

Additional observations from a re-analysis of the deposited data

Results flagged for a closer look

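The injured to uninjured difference in the ribosomal protein share in summed UMIs was in opposite directions in classes of the same libraries. It was 0.66 (log2 ratio) in OPCs, from 4.56% and 7.22%, and -0.19 in oligodendrocytes, from 4.85% and 4.26%. Within oligodendrocytes it was 1.47 in barcodes under 1000 UMIs and -0.53 in barcodes of 8000 or more UMIs. As means over barcodes both classes had the higher share in the injured library, with 3.83% and 6.01% in OPCs and 4.08% and 7.43% in oligodendrocytes. With 1 library per condition these differences between classes were not tested.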

How the results depend on the processing

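The share in oligodendrocytes was -0.19 as a log2 ratio of summed UMIs. It turned to 0.87 as a mean over barcodes, 0.88 with barcodes of at least 500 UMIs thinned to 500 and 0.77 under 8000 UMIs. It went to -0.28 with totals without Malat1 and mitochondrial genes, -0.23 scaled by the median gene, -0.34 under stricter quality limits (500 genes or more, mitochondrial share up to 10%), and -0.29 in barcodes of at least 0.5% Malat1. In that order of the first 3 settings, 60, 61 and 56 members were higher (0 as reported) and 0, 0 and 1 lower (10 as reported). The share of all genes called was not computed for the alternatives, so these counts and those below have no background. At 2-fold 1 was lower, and 18 were lower under each of the total, quality and Malat1 settings. In NFOs (-0.05), the ratio turned to 0.12 (mean over barcodes), 0.067 (thinned), 0.29 (under 8000 UMIs), 0.051 (without the barcode of most member UMIs) and 0.14 (without macrophage list UMIs), and went to -0.17 (totals), -0.25 (median gene), -0.22 (quality) and -0.19 (Malat1). Members higher in NFOs (1) came to 7, 6, 15, 3 and 6 in the first 5 settings and to 0 at 2-fold and with totals, median, quality and Malat1. Those lower (7) came to 3 with at least 200 UMIs, 0 at 2-fold and thinned, 14 (median), 1 (under 8000 UMIs), 13 (quality), 13 (Malat1), 2 (without the top barcode) and 4 (macrophage). NFOs to oligodendrocytes kept its direction: 0.96 in the injured library went to 0.35 (mean), 0.34 (thinned), 0.62 (under 8000 UMIs), 1.01 (quality), 0.84 (Malat1), 0.98 (no doublets) and 1.28 (macrophage), and 0.82 in the uninjured one to 1.10, 1.16, 1.10, 0.88, 0.73, 0.72 (top barcode) and 0.96 (macrophage). The alternatives without macrophage list UMIs and the strata by Malat1 or type within depth bands were chosen after seeing the data. For named genes, 238 of 370 values were within counting error, 114 were outside it and 18 turned. In oligodendrocytes, Rpl13a, Rpl17, Rplp1 and Rps29 turned to 0.23, 0.16, 0.55 and 0.75 (mean), 0.62, 0.22, 0.44 and 0.72 (thinned) and 0.010, 0.086, 0.50 and 0.63 (under 8000 UMIs), Rps25 to 0.10 (mean) and 0.18 (under 8000 UMIs), and Rps15 to 0.32 (thinned). Rpl13a turned to 0.19 in NFOs (Malat1), and to -0.40 (mean) and -1.36 (thinned) in NFOs to oligodendrocytes. The cause of these changes was not tested. No paired analysis was possible because each condition has 1 library. Counts limit single members under 1000 UMIs, where 6 members were below the minimum.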
